A study of Mus musculus with 12 samples.

Results

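Mouse chromosome 9 was examined in the DNA of 2 primary murine pancreatic ductal adenocarcinoma (PDAC) lines, 15376T and 14837T, as 31 pieces of the 377 into which the genome falls when it is cut at every copy-number segment border of either line. Its pieces came from 14 of 191 segments in 15376T and from 19 of 235 in 14837T. Chromosome 9 was chosen by the log2 ratios and copy-number calls of these segments, because its calls differ between the lines, so every level and call given here is a description without a test. Chromosome 9 also held 718 of 7960 rows (716 gene names) in the list of altered genes of 15376T and 0 of 4755 rows in that of 14837T.

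Whole-exome sequencing was done on 1 library of each line, so a difference between the lines has no replicate check. Both lines were isolated from tumors of engineered C57BL/6 mice with the alleles ROSA26-LSL-rtTA-IRES-GFP, p48-Cre and Trp53 L/+, shared by both lines, and their genotype label is WT. In such mice Cre under the p48 (Ptf1a) promoter acts in the pancreas, where it switches on the rtTA activator and removes the floxed copy of Trp53. The lines were kept in doxycycline, and whether a line is a clone is not given in the sources used here. The study asked how Lin28b, an RNA-binding protein that blocks maturation of let-7 microRNAs, acts in the tumor cells and in the surrounding fibroblasts. The RNA-seq samples and the tail DNA of the series were not analysed here.

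A copy-number segment is a run of neighbouring capture bins with a like ratio of read coverage to a reference, given here as log2, where 0 is the level of the reference. If every cell had lost 1 of 2 copies the log2 would be -1, and if every cell had added 1 to 2 it would be 0.58. The deposited calls follow log2 thresholds: over 0.2 is called gained and at or under -0.25 is called lost. A threshold of -1.1 for 0 copies is also used here, but it was not checked against the deposited copy numbers. Among autosomal segments called at 2 copies the SD of log2 was 0.090 in 15376T (103 segments) and 0.095 in 14837T (96 segments). These SDs are given as a scale. They are spreads between segments within a line and not the error of a difference between the lines. The log2 difference between the lines had an SD of 0.040 over 10 overlapping segments of other autosomes at 2 copies in both. The B-allele fraction (BAF) is the share of reads with the variant allele at variant sites of a segment. A loss or gain of a segment changes the dose of all genes on it, which in tumors can lower or raise the expression of many genes at once. Expression was not measured in these libraries.

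Chromosome 9 carries several genes that are known in tumor biology. Atm and Atr encode kinases that signal DNA breaks and stalled replication, Tgfbr2 and Smad3 carry the TGF-beta signal, and Ctnnb1 encodes beta-catenin, the effector of canonical Wnt signalling. Part of its distal region matches human 3p21, which is often deleted in human tumors and holds Rassf1 and Setd2. The microRNA genes Mirlet7a-2, Mir100 and Mir125b-1 form a cluster, as do Mir34b and Mir34c, and Mirlet7g, Mir191 and Mir425 lie in the distal part.

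Mature microRNAs of these genes are printed because they place the let-7 genes of chromosome 9 on either side of the change between the lines. The sequences are from RefSeq (GRCm38.p6 table), where 8 of 8 of these genes had a mature sequence, and capitals mark the seed, bases 2 to 8. No 5p sequence was found there for Mirlet7a-2 or Mir34c, so the seeds of those arms are not given. The 3p sequences of Mir100, Mir125b-1, Mir191 and Mir425 are not printed.
let-7g-5p: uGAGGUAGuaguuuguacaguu
let-7g-3p: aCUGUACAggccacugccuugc
let-7a-2-3p: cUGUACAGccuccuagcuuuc
miR-100-5p: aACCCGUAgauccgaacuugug
miR-125b-5p: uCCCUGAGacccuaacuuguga
miR-34b-5p: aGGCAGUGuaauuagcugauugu
miR-34b-3p: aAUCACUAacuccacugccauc
miR-34c-3p: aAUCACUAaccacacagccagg
miR-191-5p: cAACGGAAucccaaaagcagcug
miR-425-5p: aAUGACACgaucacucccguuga
The seed of let-7g-5p occurred in 13 of 1738 mature sequences of the table, that of miR-125b-5p in 6, that of miR-34b-5p in 4, that of miR-100-5p in 3, that of miR-425-5p in 2 and that of miR-191-5p in 1. miR-34b-3p and miR-34c-3p shared their seed. Mirlet7g, Mir191 and Mir425 lay in segments called lost in 15376T (-0.62, -0.46 and -0.46), and Mirlet7a-2, Mir100, Mir125b-1, Mir34b and Mir34c lay in segments called at 2 copies (-0.046 for the first 3 and -0.058 for the other 2). In 14837T all 8 lay at 2 copies, between -0.029 and 0.10.

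Start-site windows of 4 genes are printed because each lies at a border or inside a segment that sets the lines apart: Atm and Setd2 have a border of 15376T inside the gene, Stag1 lies in the lowest segment of 15376T, and Plscr1 lies in the only piece lost in 15376T and gained in 14837T. Each window holds 250 bases before and 50 after the RefSeq start on GRCm38.p6, read along the gene's strand, and capitals mark CG.
Atm, chr9:53536622-53536921, minus strand: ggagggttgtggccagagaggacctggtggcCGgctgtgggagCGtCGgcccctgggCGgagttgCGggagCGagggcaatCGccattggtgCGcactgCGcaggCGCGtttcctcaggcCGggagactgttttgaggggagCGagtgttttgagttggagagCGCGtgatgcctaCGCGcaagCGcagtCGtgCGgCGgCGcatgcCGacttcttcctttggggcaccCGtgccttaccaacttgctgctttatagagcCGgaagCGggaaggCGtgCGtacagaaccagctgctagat
Plscr1, chr9:92249944-92250243, plus strand: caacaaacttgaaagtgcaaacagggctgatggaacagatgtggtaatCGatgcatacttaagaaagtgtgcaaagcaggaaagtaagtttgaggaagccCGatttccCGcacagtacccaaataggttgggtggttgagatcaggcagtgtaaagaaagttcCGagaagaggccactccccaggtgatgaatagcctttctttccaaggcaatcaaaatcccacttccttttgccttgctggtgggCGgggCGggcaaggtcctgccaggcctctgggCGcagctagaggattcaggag
Stag1, chr9:100643198-100643497, plus strand: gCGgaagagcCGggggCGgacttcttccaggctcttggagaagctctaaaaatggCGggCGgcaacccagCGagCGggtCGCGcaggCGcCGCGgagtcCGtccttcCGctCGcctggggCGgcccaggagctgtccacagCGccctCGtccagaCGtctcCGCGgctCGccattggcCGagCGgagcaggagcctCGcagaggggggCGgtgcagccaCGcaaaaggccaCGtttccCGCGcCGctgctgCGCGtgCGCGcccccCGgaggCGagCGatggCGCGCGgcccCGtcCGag
Setd2, chr9:110532347-110532646, plus strand: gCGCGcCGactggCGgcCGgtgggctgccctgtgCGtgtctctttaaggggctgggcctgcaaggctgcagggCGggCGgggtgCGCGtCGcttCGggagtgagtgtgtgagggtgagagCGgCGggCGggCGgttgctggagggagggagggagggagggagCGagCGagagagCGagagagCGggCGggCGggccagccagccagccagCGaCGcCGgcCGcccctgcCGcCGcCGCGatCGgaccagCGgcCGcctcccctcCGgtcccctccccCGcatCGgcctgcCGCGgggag
CG occurred 28 times in the Atm window, 7 times in that of Plscr1, 43 times in that of Stag1 and 38 times in that of Setd2, against a median of 7 over 32851 such windows. As many or more were found in 14.2%, 52.1%, 2.61% and 4.95% of all windows, respectively. The GC content was 64% for Atm, 50.7% for Plscr1, 73.7% for Stag1 and 77.3% for Setd2 (median of all windows 52.7%). Atm is read from the minus strand, so its start site lies on the right of the gene. These windows are a description of the start sites, and DNA methylation or binding was not measured.

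Over the covered length of chromosome 9 the mean log2 was -0.37 in 15376T and 0.0095 in 14837T. In size this difference of -0.38 ranked 1 among the 19 autosomes, ahead of chromosome 13 at 0.34, where 14837T was the lower line. In 15376T 7 segments with 75.1 Mb (62.3% of the covered length) were called lost and none gained, and the other 7 were called at 2 copies. In 14837T 7 segments with 24.9 Mb (20.6%) were called gained, 1 with 2.28 Mb (1.89%) was called lost, and 11 were at 2 copies. The calls of 14837T lay close to the thresholds: at an absolute log2 of 0.3 its gained share was 3.42% and at 0.5 it was 0, and its lost share was 0 at 0.3, at 0.5 and after recentring of the log2. The call differed between the lines over 80.03% of the length, second to chromosome 17 (94.2%) and close to chromosomes 13 (79.3%) and 19 (78.4%). At an absolute log2 of 0.3 this share of chromosome 9 was 60.9%, and at 0.5 it was 56.0%. The other chromosomes were not counted at these cut-offs.

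The lines had 12636 bins each on chromosome 9, of 217776 in 15376T and 217778 in 14837T. Mean depth on chromosome 9 was 36.9 in 15376T, below the 43.4 of all its autosomes, and 50.3 in 14837T, above the 47.5 of all its autosomes. The sources name a pair of capture kits, each made against the human exome, for this murine DNA. How this touches the levels was not tested.

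**Figure D1:**
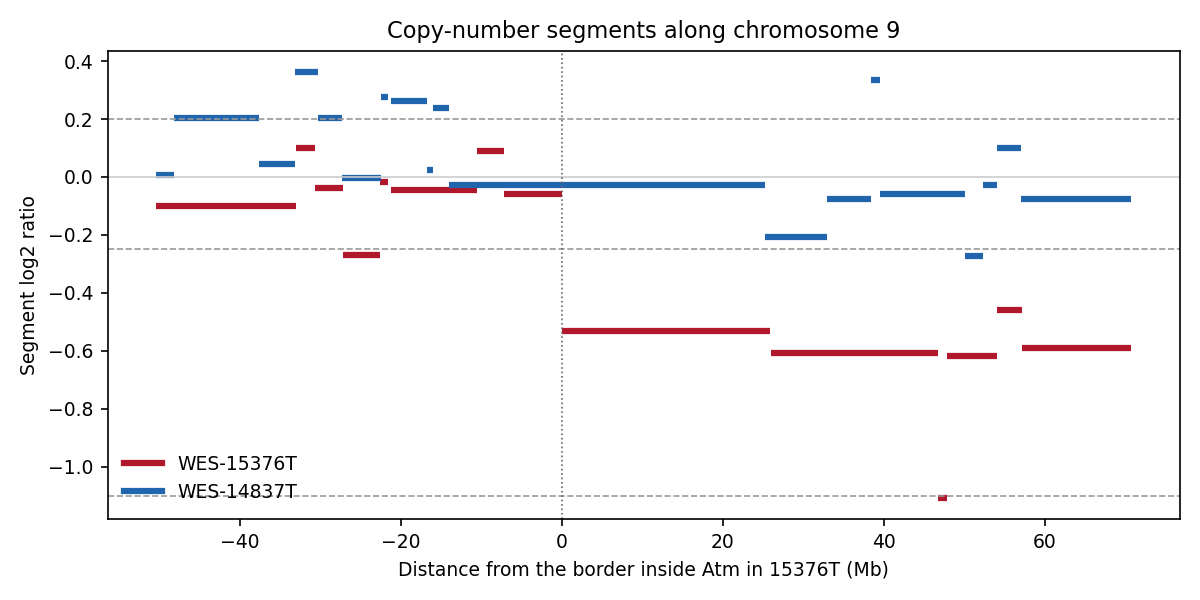
Segment log2 ratio (vertical axis) along chromosome 9, as distance in Mb from the border inside Atm in 15376T (horizontal axis). Each bar is 1 segment of 15376T (red) or 14837T (blue), and dashed lines mark the call thresholds at 0.2, -0.25 and -1.1. To the right of the border the 15376T bars lie at -0.46 or lower, and the 14837T bars lie between -0.27 and 0.34.

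In 15376T the level fell inside Atm and stayed low to the end of the chromosome. From its first bin to chr9:53479788 the 8 segments lay between -0.27 and 0.099, and 7 of these 8 were called at 2 copies. From chr9:53480542 to the last bin at 124160929 the 6 segments lay at -0.53, -0.61, -1.11, -0.62, -0.46 and -0.59, and every one of them was called lost. The step of -0.47 at this border fell inside Atm. Depth followed, from 44.7 in the segment to the left of the border to 33.5 in the segment to the right.

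Atm (chr9:53437122-53536828) was divided by this border. The 42.7 kb that hold the 3' part of the gene lay in the segment at -0.058, and the 56.3 kb that hold its start lay in the segment at -0.53. The gene was listed as altered in 15376T with 34 bins and a mean depth of 40.8. In 14837T both sides lay in 1 segment at -0.029, and its nearest border was 14.0 Mb away. A border is set at bin edges, and exons were not part of the annotation used, so the exon in which it falls is not given.

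Before Atm, 15376T had a short stretch called lost, chr9:26320927-30910918, with a log2 of -0.27 and 226 bins. It lay just inside the threshold of -0.25, and it ran from B3gat1 to Adamts15. In 14837T nearly the same stretch, chr9:26177567-31052763, lay at -0.0030. This stretch lay below its neighbours in both lines, and the neighbours in 14837T were called gained at 0.20 and 0.28.

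In 14837T the gained segments lay in the first 39.5 Mb and, once more, in a short distal piece. The first, chr9:5358210-15914449, lay at 0.20 and held the matrix metalloproteinase cluster and Yap1. The next, chr9:20351871-23253830, was the highest of the chromosome at 0.36, and its part from Zfp426 to Bbs9, with 70 genes, was also the highest level of 15376T (0.099, called at 2 copies). It began inside Zfp560, and it was followed by a segment at 0.20 that began inside Bmper. Segments at 0.28, 0.26 and 0.24 lay between 31.1 and 39.5 Mb. The log2 of 2 of these gained segments, 0.2025 and 0.2022, was barely over the threshold of 0.2, and the highest segments of 14837T stayed short of the 0.58 of 1 copy added in every cell. The only lost segment, chr9:103500725-105784299, from Tmem108 to Col6a6, lay at -0.27, and the segment at -0.21 just missed the threshold.

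Cutting at the borders of both lines gave 5 pairs of calls. The most frequent was lost in 15376T and at 2 copies in 14837T, with 13 pieces, 71.6 Mb and 680 protein-coding genes. It took 59.4% of chromosome 9, compared with 4.17% of the other autosomes. Second came 2 copies in 15376T and gained in 14837T, with 8 pieces, 23.6 Mb and 246 genes (19.6%, compared with 10.3% of the other autosomes). Both lines were at 2 copies over 8 pieces with 21.8 Mb and 243 genes (18.1%, compared with 44.0%). Both were lost over 1 piece with 2.28 Mb and 16 genes (1.89%, compared with 22.7%). The last pair, lost in 15376T and gained in 14837T, took 1 piece with 1.23 Mb and 6 genes (1.02%, compared with 1.04%).

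Counted over the 1191 protein-coding genes of chromosome 9 that lay in segments of both lines, 702 (58.9%) were called lost in 15376T, where 30.6% of all 20413 autosomal genes were. No gene of the chromosome was called gained in 15376T, against 9.04% of all autosomal genes. In 14837T 16 genes (1.34%) were called lost, against 29.8% of all, and 252 (21.2%) were called gained, close to the 21.1% of all. The call differed in 932 genes (78.3%), against 29.5% of all. Genes lost in 15376T and gained in 14837T numbered 6 (0.504%), against 1.1% of all. The median gene of chromosome 9 lay at -0.46 in 15376T and -0.029 in 14837T, and the median over all autosomal genes lay at -0.029 and -0.048. These shares are the values that chose the chromosome, and neighbouring genes share a segment, so they are not separate measurements.

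The difference between the lines (15376T minus 14837T) fell into 3 stretches, which were defined from the values. In the proximal 36.0 Mb, chr9:3133885-39485258, with 14 pieces and 329 genes, the mean was -0.089 in 15376T and 0.16 in 14837T, a difference of -0.25. All 14 pieces had a difference under 0, from -0.46 to -0.016. In the middle 14.0 Mb, chr9:39485759-53479788, with 3 pieces and 175 genes, the means were -0.020 and -0.029 and the pieces differed by -0.029 to 0.12. In the distal 70.5 Mb, chr9:53480542-124160929, with 14 pieces and 687 genes, the means were -0.58 and -0.061, a difference of -0.52 with pieces from -1.05 to -0.32.

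The stretches were cut from these same differences, so their contrast is a description. Expressed as a ratio to the reference, the distal stretch stood at 0.67 in 15376T and 0.96 in 14837T, and the proximal stretch at 0.94 and 1.12. Within 0.095 of the mean difference lay 77.1% of the proximal and 82.5% of the distal length. The 0.095 is the SD among 2-copy segments of 14837T and not the error of a difference.

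**Figure D2:**
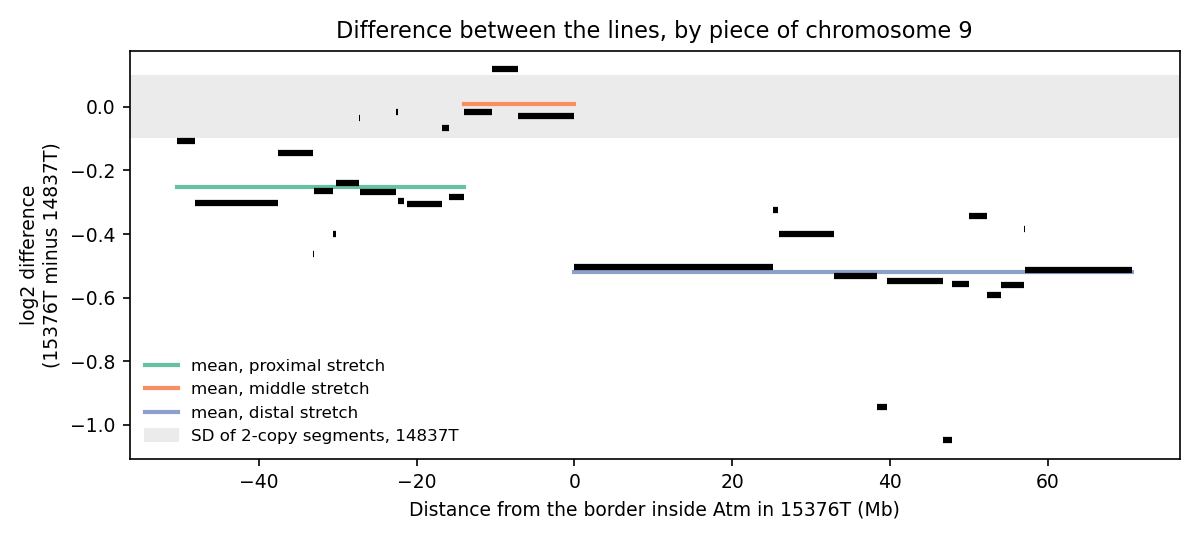
Difference in log2 between the lines (15376T minus 14837T, vertical axis) for each of the 31 pieces along chromosome 9, by distance in Mb from the border inside Atm in 15376T (horizontal axis). Black bars are pieces, coloured lines are the length-weighted means of the 3 stretches (-0.25, 0.0088 and -0.52), and the grey band is 1 SD (0.095) around 0. The pieces at -0.94 and -1.05 stand below the others.

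The only opposite piece, chr9:91822297-93048985, was lost in 15376T at -0.61 and gained in 14837T at 0.34, a difference of -0.94. In 14837T it was a segment of its own with 59 bins, the fewest of any segment of the chromosome in either line, and its depth was 65.3, against 50.02 and 47.3 in the segments to its left and right. In 15376T it was no segment of its own but part of the segment at -0.61, whose depth was 31.9. The piece held 6 protein-coding genes: Plscr5, Plscr1, Plscr2, Plscr4, 1700057G04Rik and Plod2. In 15376T the depths of Plscr1, Plscr2, 1700057G04Rik, Plscr4 and Plod2 were 53.4, 42.1, 42.6, 48.5 and 43.1. The median over the 115 listed rows of the segment at -0.61 was 34.9. The row of B430319G15Rik, also in the piece, had 26.3 over 1 bin. Zic4 was the nearest gene on the left of the piece and Dipk2a on its right. The Plscr genes encode phospholipid scramblases, which move lipids between the leaflets of membranes, and Plod2 encodes a lysyl hydroxylase that modifies collagen for cross-linking. All 4 Plscr genes of the chromosome lay in this piece.

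The lowest segment, chr9:100167403-101354423 in 15376T, lay at -1.11 with 93 bins and was called at 0 copies. It just passed the threshold of -1.1. Its ratio to the reference was 0.46 and its depth was 21.3, so reads were still found over it, and its neighbours lay at -0.61 and -0.62 with depths of 31.9 and 31.7. In 14837T it lay within a longer segment at -0.058, a difference of -1.05. BAF was blank for it in 15376T.

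The 7 listed genes of this segment had a mean depth between 20.1 and 25.2. Il20rb, a chain of the receptors of the IL-20 cytokine family, had 20.1, Pccb, a subunit of propionyl-CoA carboxylase, had 21.6, and Ppp2r3a, a regulatory subunit of protein phosphatase 2A, had 22.6. Slc35g2 had 23.4, Nck1, an adaptor that links receptor tyrosine kinases to the cytoskeleton, had 25.0, and Msl2, a subunit of a histone acetyltransferase complex, had 25.2. Stag1, a subunit of the cohesin ring that holds sister chromatids together, had 25.0 over 41 bins. Their median was 23.4. The 10 listed genes to the left, from Esyt3 to Sox14, had a median of 31.2 (23.6 to 39.8), and the 10 to the right, from Ephb1 to Srprb, had 29.9 (19.6 to 44.5), so the ranges overlapped. Depth differs widely between genes, and 128 of the 711 other listed genes (18.0%) had a depth at or under 25.2. With at least 5 bins, 66 of 487 (13.6%) lay at or under the 25.0 of Stag1.

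**Figure D3:**
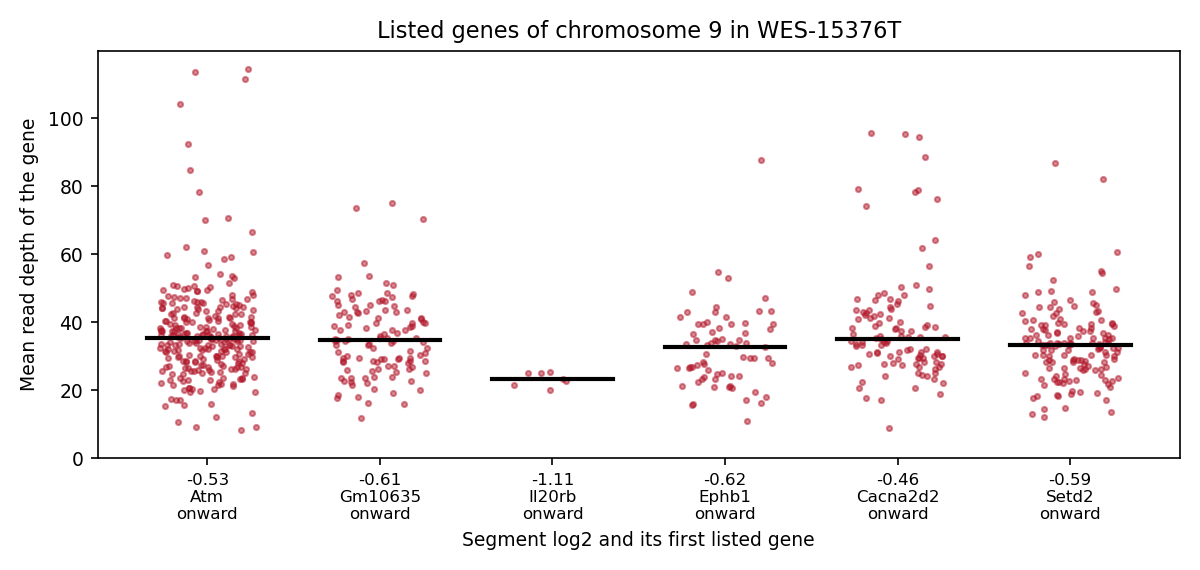
Mean read depth (vertical axis) of each of the 718 rows of chromosome 9 listed in 15376T, by the segment in which they lie (horizontal axis, segment log2 with its first listed gene). Each point is 1 row and black lines are medians. The 7 genes of the segment at -1.11 have a median of 23.4, and the other 5 medians lie between 32.6 and 35.5.

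All 718 listed rows of 15376T lay in the 6 lost distal segments. They began at Atm. Median depth was 35.5 for 270 rows of the segment at -0.53, 34.9 for 115 rows at -0.61, 32.6 for 69 rows at -0.62, 35.0 for 109 rows at -0.46 and 33.3 for 148 rows at -0.59. Within a segment single rows ranged widely, from 8.39 to 115 in the first. The list held only rows with an absolute log2 of at least 0.401 over all chromosomes in 15376T and 0.404 in 14837T, so the lost stretch at -0.27 and every changed segment of 14837T on chromosome 9 fell short of it. The absence of chromosome 9 genes from the list of 14837T is thus no sign of an unchanged call.

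Lists of 97 genes of the chromosome were followed by function. In 15376T 61 of these were called lost and 36 at 2 copies, and in 14837T 20 were called gained and 77 at 2 copies. The call differed in 81 genes. The shares, 62.9% lost in 15376T and 20.6% gained in 14837T, were close to the 58.9% and 21.2% of all genes of the chromosome. The genes of a list often share 1 segment, and then share 1 log2.

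The gained genes of 14837T were grouped at the proximal end. All 10 matrix metalloproteinase genes, Mmp1a, Mmp1b, Mmp3, Mmp7, Mmp8, Mmp10, Mmp12, Mmp13, Mmp20 and Mmp27, which encode enzymes that degrade extracellular matrix, lay at 0.20 in 14837T and -0.10 in 15376T. Yap1, the transcriptional co-activator at the end of the Hippo pathway, and Birc2 and Birc3, inhibitors of apoptosis, had the same values, since they lie in the same segments. Dnmt1, the maintenance DNA methyltransferase, Smarca4, the ATPase of the SWI/SNF remodeller, Carm1, an arginine methyltransferase, and Keap1, which holds the oxidative stress factor Nrf2 in check, lay at 0.36 in 14837T and 0.099 in 15376T. Ets1 and Fli1, neighbouring ETS factors, lay at 0.26 and -0.046. These genes were at 2 copies in 15376T. Of the 11 genes on the list of chromatin and transcription regulators, 6 (54.5%) were called gained in 14837T, against 21.2% of all genes of the chromosome. In 15376T 3 of the 11 (27.3%) were called lost, against 58.9%.

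Several other list genes were not gained in 14837T. Apoa1, Apoa4, Apoa5 and Apoc3, apolipoproteins that lie next to each other, were at 2 copies in both lines, at -0.029 in 14837T and 0.089 in 15376T. Kmt2a, a histone methyltransferase, and H2ax, the histone variant phosphorylated at DNA breaks, lay in the same pieces with the same values. Chek1, a kinase activated by Atr, lay at 0.022 and -0.046.

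Of 9 genes of DNA damage response and repair, 6 (66.7%) were lost in 15376T and at 2 copies in 14837T, where 58.9% of all genes of the chromosome were lost in 15376T. This and the counts of the next lists are to be read against that share. Atr lay at -0.61 in 15376T and -0.058 in 14837T, Atrip, its partner, at -0.46 and 0.10, and Topbp1, which activates Atr, at -0.62 and -0.058. Neil1, a DNA glycosylase, lay at -0.53 and -0.029, and Rad54l2 at -0.62 and -0.026. Atm lay at -0.53 on its start-site side. Mre11a, which encodes a nuclease of the break-sensing MRN complex, was the only gene of this list called gained, at 0.20 in 14837T and -0.10 in 15376T.

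All 5 genes of the TGF-beta and BMP list were lost in 15376T and at 2 copies in 14837T. Smad3, which carries the TGF-beta signal to the nucleus, Smad6, an inhibitor of BMP signalling, and the ligand gene Bmp5 lay at -0.53 and -0.029. The receptor genes Tgfbr2 and Acvr2b lay at -0.59 and -0.075. Depths in 15376T were 20.5 for Smad3, 20.7 for Smad6, 29.4 for Bmp5, 26.0 for Tgfbr2 and 18.2 for Acvr2b, lower than those of the 6 lost repair genes (32.6 to 44.6). Since the segment levels of both lists were alike, depth in 1 library cannot be compared between genes as a copy number.

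Of 4 Wnt genes 3 were lost in 15376T. Ctnnb1 (chr9:120933400-120960507) lay at -0.59 in 15376T and -0.075 in 14837T, the Wnt co-receptor gene Ryk at -0.62 and -0.058, and the kinase gene Csnk1g1 at -0.53 and -0.029. Bcl9l, a co-activator of beta-catenin, was at 2 copies in both, at 0.089 and -0.029. Of 8 genes of Ras, PI3K and kinase signalling 7 were lost in 15376T: Map2k1, a kinase of the Ras pathway, and Csk, which inhibits Src, at -0.53, the small GTPase gene Mras, the PI3K catalytic subunit gene Pik3cb and Rasa2, a Ras GTPase-activating protein, at -0.61, Rhoa at -0.46 and Nck1 at -1.11. Cbl, a ubiquitin ligase of receptor tyrosine kinases, was at 2 copies in both lines.

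The 17 genes of the region that matches human 3p21 were lost in 15376T and at 2 copies in 14837T. Of these, 16 lay at -0.46 in 15376T, namely Rassf1, Tusc2, Nprl2, Zmynd10, Cyb561d2, Hyal1, Hyal2, Sema3b, Sema3f, Rbm5, Rbm6, Mst1, Mst1r, Dag1, Lamb2 and Gpx1. Rassf1 encodes a Ras-association protein, the Sema3 genes encode secreted guidance cues, Mst1 encodes the ligand of the receptor made by Mst1r, and Gpx1 encodes a glutathione peroxidase. Cacna2d2, a calcium channel subunit, was divided by a border with -0.62 on the left and -0.46 on the right. The border of 14837T lay 51.0 kb further on, inside Tusc2, with -0.026 to the left and 0.10 to the right. Smarcc1, a SWI/SNF subunit, lay at -0.46 and 0.10, and Pml, the gene of the nuclear bodies of that name, at -0.53 and -0.029.

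Setd2 (chr9:110532500-110618633), the methyltransferase that places trimethylation on histone H3, was divided as well. Its start lay at -0.46 and its 3' part at -0.59, both called lost. It was listed in 2 rows, with 13 bins at a depth of 43.7 and 12 bins at 33.8. In 14837T the nearest border lay 53.1 kb away, in Kif9, and the whole of Setd2 lay at -0.075.

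Of the distal end 11 chemokine receptor genes, Ccr1, Ccr1l1, Ccr2, Ccr3, Ccr4, Ccr8, Ccr9, Ccrl2, Cxcr6, Xcr1 and Cx3cr1, lay at -0.59 in 15376T and -0.075 in 14837T. Their depths in 15376T were 31.1 to 52.5, over 1 to 4 bins each. Trim71, a ubiquitin ligase and let-7 target, had the same log2 values with a depth of 13.6 over 5 bins. On the list of microRNA genes with Trim71, 4 of 9 (44.4%) were called lost in 15376T. Among metabolic genes Pkm, the glycolytic pyruvate kinase, Gclc, which makes the first intermediate of glutathione, and Acat1 lay at -0.53 in 15376T, and Me1, a malic enzyme, at -0.61. Sdhd, a subunit of succinate dehydrogenase, was at 2 copies in both lines, at -0.058 and -0.029.

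Borders of the segments coincided in part. Inside the chromosome 15376T had 13 borders and 14837T had 18. A pair lay within 100 kb of each other at 4 places, which is 30.8% of the borders of 15376T and 22.2% of those of 14837T. Over the other autosomes 35 pairs lay this close, of 151 and 187 borders (23.2% and 18.7%). At 1 place of the 4 the pair lay at the same base, on a stretch of 326 kb without bins from chr9:31913019 to 32239268, where the steps were small in both lines (-0.027 and -0.015). With a tolerance of 1 Mb 8 pairs coincided (61.5% and 44.4%).

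At all 8 places the level changed in the same direction in both lines. Within 100 kb this held for 4 of 4 pairs on chromosome 9 and for 30 of 35 pairs on the other autosomes. A shared direction was thus common on the other autosomes as well. For the wider tolerance that gave the 8 places, no count over the other autosomes is given. Near 20.4 Mb, between Olfr18 and Zfp426, the level went up by 0.20 in 15376T and 0.32 in 14837T, with borders 93.1 kb apart. Near 22.9 Mb, between Rp9 and Npsr1, it went down by 0.14 and 0.16 (365 kb apart). It went down by 0.23 and 0.21 between Eepd1 and B3gat1 (143 kb apart) and up by 0.25 and 0.28 between Snx19 and St14 (142 kb apart). Near 79.3 Mb, before Col12a1, a collagen gene, it went down by 0.075 and 0.18 (595 kb apart). It went up by 0.16 and 0.13 between 6430571L13Rik and Hyal2 (51.0 kb apart) and down by 0.13 and 0.18 around Klhl18 and Nradd (53.1 kb apart). At 6 of the 8 places the steps of the lines differed by less than 0.090, and the largest gap between them was 0.12. The 0.090 is the SD among 2-copy segments of 15376T and not the error of a step.

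Borders with and without a partner were also compared by the size of their steps. In 15376T the 8 coinciding steps had a median size of 0.15, and the 5 without a border of 14837T within 1 Mb had 0.47. The latter were the step at Atm (-0.47), both sides of the segment at -1.11 (-0.50 and 0.49, with the nearest borders of 14837T 3333 and 2146 kb away), and smaller steps inside Arhgef12 (0.13) and Bud13 (-0.15). In 14837T the medians were 0.18 for coinciding and 0.23 for the 10 other steps, of which the largest were those on the sides of the opposite piece (0.41 and -0.39). The sizes overlapped, since the coinciding steps of 14837T reached 0.32 and 0.28, at the start of segments called gained. From the sides of the opposite piece the nearest borders of 15376T lay 8345 and 7118 kb away. The end of the proximal gains of 14837T, a step of -0.27 inside Olfr44, was 3489 kb from a border of 15376T.

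**Figure D4:**
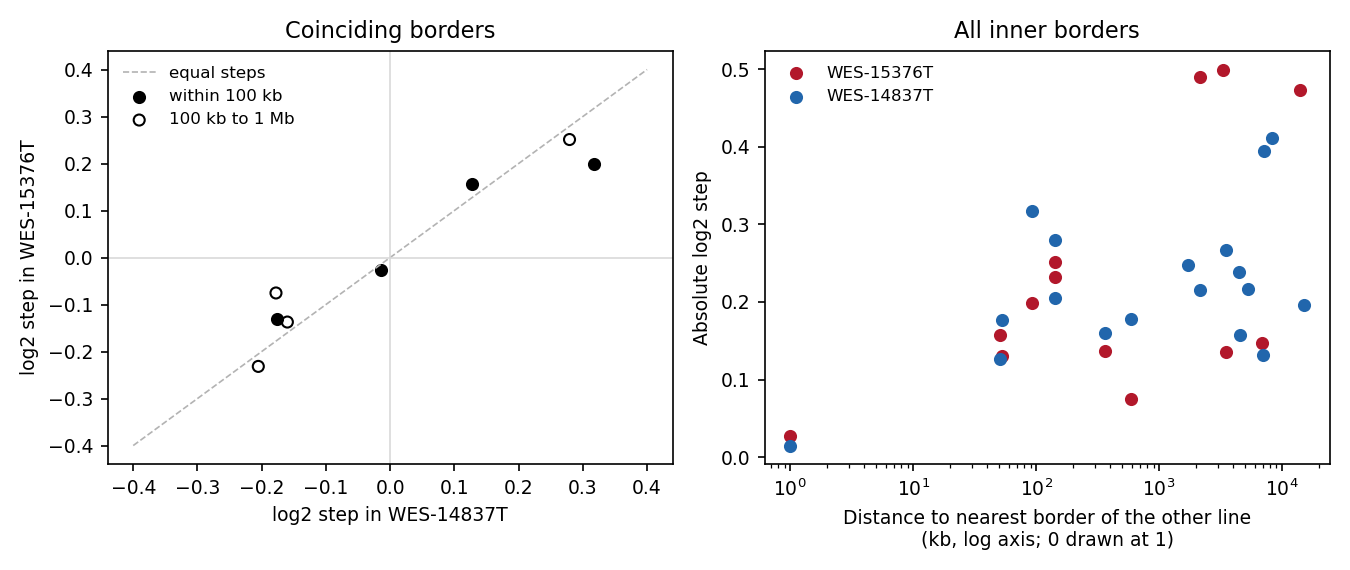
Left, log2 step in 15376T (vertical axis) against that in 14837T (horizontal axis) at the 8 coinciding borders, filled within 100 kb and open up to 1 Mb, with the line of equal steps. Right, absolute log2 step (vertical axis) of every inner border of 15376T (red, 13) and 14837T (blue, 18) by its distance in kb from the nearest border of the other line (horizontal log axis, 0 drawn at 1). In the right panel the steps of 0.39 to 0.50 all lie more than 1 Mb from a border of the other line.

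Bin density moved with the coinciding borders. At 7 of the 8 the side with more bins per Mb had the higher log2 in 15376T, and over all borders this was so at 10 of 13 in 15376T and 11 of 18 in 14837T. At the border near 20.4 Mb density in 15376T went from 57.2 to 310 bins per Mb as the level went up, and near 22.9 Mb it went from 310 to 39.9 as the level went down. Before Hyal2 it went from 142 to 356, and around Klhl18 and Nradd from 356 to 117. The exception was the border before B3gat1, where density rose from 39.9 to 49.2 and the level went down. The part of bin density in the shared steps was not tested.

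Depth itself is not a ratio to the reference, although it comes from the same reads. The reference still enters a comparison of depths through the segment borders and through the 2-copy calls used for centring. Segments of the lines that overlapped each other by at least 80% of both lengths numbered 44 over the autosomes and 6 on chromosome 9. The log2 ratio of their depths was centred on 10 segments at 2 copies in both lines on other autosomes, whose SD was 0.043. On chromosome 9 the 4 proximal segments had a mean of -0.35 (-0.41 to -0.30), where the log2 differed by -0.27 (-0.29 to -0.24). The 2 distal segments, from Hyal2 to the end of the chromosome, had -0.63 and -0.58 (mean -0.60), where the log2 differed by a mean of -0.54. Both measures come from the same reads, and the chromosome was chosen by the log2, so the depth ratios are a description and no independent support. Centred on mean depth instead, the ratios were -0.24 and -0.49, so their size rests on the centre.

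BAF was low in most segments of both lines. Its median over the chromosome was 0.0857 in 15376T and 0.0531 in 14837T, and over the autosomes 0.0770 and 0.0606. In 15376T the 6 lost segments with a value had a median of 0.0722 (0.05 to 0.267), and 1 of them was over 0.1. The 7 segments at 2 copies had 0.0811, and 3 of them were over 0.1. These 4 segments over 0.1 lay in the proximal stretch, at 0.171, 0.271, 0.267 and 0.293. The lost distal segments lay between 0.05 and 0.0984.

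In 14837T the 6 gained segments with a value had a median BAF of 0.0877 (0.0606 to 0.194), the 11 segments at 2 copies had 0.0563 and the lost segment had 0.0800. Over 0.1 lay 2 gained segments, at 0.194 and 0.129, and 2 segments at 2 copies, at 0.125 and 0.241. All but the last lay in the proximal stretch. The highest value, 0.241, belonged to the segment from Col6a6 to Tusc2 at a log2 of -0.026. The highest level of 14837T, 0.36, had a BAF of 0.194, and the opposite piece had 0.0606. The BAF ranges overlapped between calls in both lines. The number of variants behind each value is not in the tables, and the mice were of the inbred strain C57BL/6.

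**Figure D5:**
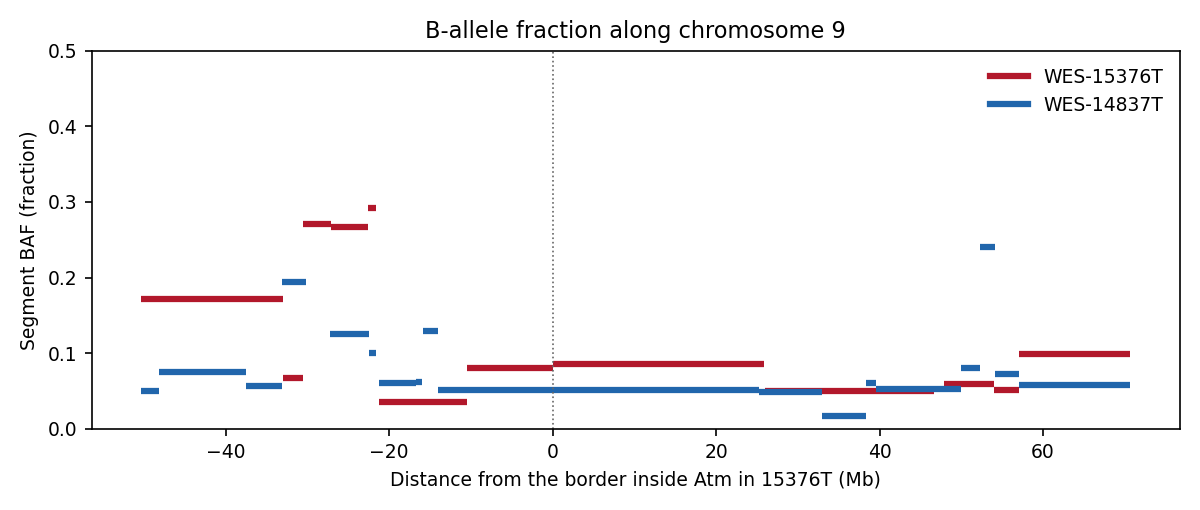
BAF of each segment (vertical axis, fraction) along chromosome 9 by distance in Mb from the border inside Atm in 15376T (horizontal axis), in 15376T (red) and 14837T (blue). To the right of the border the 15376T segments lie between 0.05 and 0.0984, and the 4 values of 15376T over 0.1 lie in the proximal stretch. In 14837T values over 0.1 lie in the proximal and in the distal stretch.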

How the data were processed

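Genomic DNA of 15376T and 14837T was captured for exome sequencing and run on an Illumina NovaSeq instrument, with 1 library per line. The study's methods name a NimbleGen human exome library and the labels an Agilent SureSelect human exome kit. The labels give the build mm10. The aligner, the copy-number reference and the filters are not given in the sources used here. The authors deposited 1 table of segments and 1 table of altered genes per line. The deposited log2 values are ratios of coverage to a reference, the deposited BAF is a fraction from 0 to 1, the deposited depth is an unnormalised coverage signal, and the deposited weight is a score that was not used. The deposited calls of gain and loss on the autosomes followed thresholds of 0.2 and -0.25 on log2 with 0 exceptions in each line. The threshold of -1.1 for 0 copies was not checked in this way.

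Starts were rewritten to count from 1. Chromosome 9 was cut at every border of either line, and means of log2 were weighted by length. Mean depths of the chromosome and the autosomes were weighted by bins, and mean depth ratios were not weighted. BAF medians over the chromosome and the autosomes were weighted by length, and those by call were not. Borders within 100 kb were called coinciding. Gene positions and sequences came from RefSeq GRCm38.p6, whose positions overlapped all 718 listed rows. Depth ratios used segments with a reciprocal overlap of 80%. Depth was 36.9 and 50.3 on average on the chromosome, and its error cannot be estimated from 1 library. Python 3.11.15, numpy 2.4.6, pandas 2.3.3, scipy 1.17.1 and matplotlib 3.10.9 were used. Cutting, the comparison of calls and the matching of borders at the same base were checked on simulated segments with known calls and borders. Matching within 100 kb or 1 Mb, depth ratios, BAF and the placing of genes were not simulated.

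The members and lists were chosen with earlier results of these data known. Named were all list genes whose call differs between the lines, then up to 4 others, the genes of the highest and lowest segments, those of the opposite piece, and the neighbours of coinciding borders. Genes with a border inside, the 3 stretches and the families given in the closing section were chosen after their values were seen. Some genes and an allele of the mice are not reported here. No p-value is given.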

Additional observations from a re-analysis of the deposited data

How the results depend on the processing

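No paired analysis was possible because there was 1 library per line, so no replicate could be left out either. With calls at an absolute log2 of 0.3, the share of chromosome 9 lost in 14837T became 0 (1.89% as reported) and the share gained 3.42% (20.6%). At 0.5 both were 0, and so was the share lost in 15376T and gained in 14837T (1.02%). That share was 0.461% weighted by bins. With log2 recentred on the autosomal median, nothing was called lost in 14837T. Coinciding borders numbered 1 at the same base and 8 within 1 Mb (4 within 100 kb). The depth ratios were -0.24 and -0.49 when centred on mean depth (-0.35 and -0.60). These 11 values moved, 41 did not, and no difference changed sign. Moved means a change over 0.090 for log2 values, and over 1.5 times or to 0 for shares, counts and BAF. Some of the 41 could not move, so their number is no measure of how firm the results are. Among them were the gained share of 15376T and the listed genes of 14837T, which were 0 and stay 0 under stricter rules. A minimum of 50 bins removed no segment of chromosome 9, where the smallest had 59, so no value could move under it. The depth ratio over genes of at least 5 bins had no value, since no gene of the chromosome is listed in 14837T. Leaving out the stretch without bins, and an overlap of 50% for the depth ratios (-0.36 over 5 segments and -0.58 over 3), were chosen after seeing the data. The share lost in 15376T was 58.5% at 0.3 and 56.0% at 0.5 (62.3%). The share with a different call was 60.9% at 0.3 and 56.0% at 0.5 (80.03%).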

Other observations

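Gene families of chromosome 9 lay on either side of the borders. All 129 olfactory receptor genes of the chromosome were at 2 copies in 15376T, between -0.10 and -0.046. In 14837T 64 of them (49.6%) were called gained, at up to 0.24, and 65 were at 2 copies. Over all protein-coding genes of the chromosome 58.9% were called lost in 15376T and 21.2% gained in 14837T. The end of the proximal gains of 14837T fell inside Olfr44, and Olfr18, far to its left, lay at 2 copies at 0.045. Genes of this family resemble each other, how reads that match several of them were counted is not given in the sources used here, and their levels are uncertain.

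Several smaller families lay wholly within lost segments of 15376T and at 2 copies in 14837T. They were the 3 alpha-class glutathione S-transferase genes at -0.53, the 3 Trim43 genes and the pair Zic1 and Zic4 at -0.61, the 3 genes of voltage-gated sodium channels at -0.59 and the 7 Prss serine protease genes between -0.61 and -0.59. Of 6 cytochrome P450 genes 5 (83.3%) were lost in 15376T, and the sixth was called gained in 14837T at 0.20. These counts are to be read against the 58.9% of all protein-coding genes of the chromosome that were lost in 15376T. Neighbouring genes of a family share a segment, so they are not separate measurements.

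Of the 49 microRNA genes of the chromosome in RefSeq 48 lay in segments of both lines. In 15376T 28 of them (58.3%) were called lost and 20 at 2 copies, close to the 58.9% of protein-coding genes of the chromosome that were lost. In 14837T 11 (22.9%, against 21.2% of protein-coding genes) were called gained, 1 lost and 36 at 2 copies, and 1 was lost in 15376T and gained in 14837T. Across 432 listed genes of 15376T depth and promoter GC content had a Spearman rho of -0.061, given as a description of 1 library.

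Pieces called in opposite directions were also found on other autosomes. The longest total was on chromosome 12, with 12.1 Mb lost in 15376T and gained in 14837T, followed by chromosome 4 with 9.67 Mb. Chromosome 14 held 8.33 Mb of the reverse pair, gained in 15376T and lost in 14837T.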
